A study of Arabidopsis thaliana with 16 samples.

Results

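The small RNAs that came down with the Argonaute protein AGO5 in flowering Arabidopsis thaliana were compared with those that came down with green fluorescent protein (GFP) alone, which measures the background of the pull-down. The comparison rests on the 4 of 16 libraries of RNA immunoprecipitation (IP) followed by small RNA sequencing that the sample titles give as AGO5 IP or GFP control at day 35, with 2 replicates in each group. AGO5 IP libraries came from plants carrying pAGO5::GFP-AGO5 in the col-0 background, and GFP-only IP libraries from plants carrying p35S::GFP in the same background. Both were taken at 35 days from inflorescence meristems, floral meristems and young flower buds, and both pull-downs used the GFP tag. The AGO5 fusion was driven by its own promoter and the control GFP by the broadly active 35S promoter, so the tagged proteins need not lie in the same cells in both groups. The other 12 libraries were AGO9 IP and input at day 35 and all 4 kinds of library from shoot apices at day 7. Apart from the comparison of ages, in the fits they served to estimate the spread, to choose the features tested and to scale libraries in the alternative normalizations. Nothing in the labels says that the replicates came from separate plants. The p-values therefore measure only the spread between replicate libraries, pooled over 8 groups, which may be technical. In bulk tissue, fewer cells of a type and less small RNA per cell cannot be told apart.

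Argonaute proteins hold a short guide RNA and bind transcripts that pair with it. In plants, guides of 21 nt are mostly microRNAs (miRNAs) and secondary small interfering RNAs (siRNAs), those of 22 nt include siRNAs that start further siRNA production, and those of 24 nt direct DNA methylation at transposable elements (TEs). Which Argonaute takes a small RNA depends in part on its first base, and AGO5 is known to favour a cytosine there. AGO5 is expressed in reproductive tissue and in meristems, whereas most miRNAs, which begin with uracil, are held by AGO1.

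The mature sequences below are annotated at miRNA loci that rose or fell; values are of whole loci, since reads were not assigned to single products. They were read 5′ to 3′ from the TAIR10.1 genome at the RefSeq coordinates, and capitals mark the seed, bases 2 to 8. The first 5 belong to loci that rose in the AGO5 IP, and the other 4 to loci that fell.
miR845a, chr4:12217457-12217477, minus strand: cGGCUCUGauaccaauugaug
miR845b, chr4:12214086-12214107, minus strand: uCGCUCUGauaccaaauugaug
miR5028, chr4:6546769-6546789, minus strand: aAUUGGGUuuaugcuagaguu
miR824-5p: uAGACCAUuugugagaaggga
miR829-5p: aCUUUGAAgcuuugauuugaa
miR396a-5p: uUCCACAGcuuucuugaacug
miR390a-5p: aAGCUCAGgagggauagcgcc
miR172e-3p: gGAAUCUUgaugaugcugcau
miR858a: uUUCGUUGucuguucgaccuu
No seed was shared between these 9 sequences. miR845a and miR845b are known to pair with the primer binding site of long terminal repeat retrotransposons, the place where a transfer RNA starts reverse transcription.

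The AGO5 IP libraries held 16750832 and 11466340 read assignments to features, against 3578524 and 4160496 in the GFP-only IP libraries. A floor of 3 reads came to 0.179 and 0.262 reads per 1000000 assignments (RPM) in the AGO5 IP, against 0.838 and 0.721 RPM in the GFP-only IP. The shallower GFP-only libraries had more empty features: of 17020 features, those without a read made up 15.6% and 14.1% in the AGO5 IP, against 39.8% and 53.5% in the GFP-only IP. The replicates of the AGO5 IP correlated at r = 0.929 on log2(RPM + 1) across features, and those of the GFP-only IP at r = 0.743, where features are not independent replicates. Each GFP-only library was closer to replicate 2 of the day 35 input (r = 0.837 and 0.782) than to the other GFP-only library. The median SD between replicates at 21 nt was 0.427 in the AGO5 IP and 1.17 in the GFP-only IP on the log2 scale. At 24 nt it was 0.398 in the AGO5 IP and 0.293 in the GFP-only IP. Over all sizes it was 0.369 in the AGO5 IP and 0.453 in the GFP-only IP. The other groups, whose spread is pooled with these, ran from 0.111 to 0.814 at 21 nt and from 0.121 to 0.394 over all sizes. At 22 nt the median SD was 0.338 in the AGO5 IP and 0.685 in the GFP-only IP, and from 0.126 to 0.773 in the other groups. At 23 nt it was 0.446 in the AGO5 IP and 0.637 in the GFP-only IP, and from 0.113 to 0.726 in the others. At 21, 22 and 23 nt and over all sizes the pooled spread can thus understate that of the GFP-only IP, and p-values can be too small.

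The AGO5 IP held a smaller share of 21 nt reads and a larger share of 22 nt reads than the GFP-only IP. Reads of 21 nt made up 24.1% and 27.1% of assignments in the AGO5 IP, against 43.9% and 38.5% in the GFP-only IP, with means of 25.6 ± 2.13% and 41.2 ± 3.81% (SD, n = 2 each). Reads of 22 nt made up 29.4% and 27.8% in the AGO5 IP, against 22.8% and 17.7% in the GFP-only IP. Neither size overlapped between the groups. Reads of 24 nt made up 34.4% and 30.0% in the AGO5 IP, against 19.5% and 29.8% in the GFP-only IP, a mean difference of 7.53 percentage points in which GFP-only replicate 2 came within a point of AGO5 replicate 2. With structural, organellar and miRNA features left out this difference was 3.16 points and the groups overlapped, at 37.5% and 34.6% in the AGO5 IP, against 25.3% and 40.5% in the GFP-only IP, and it was 2.04 points with misc_RNA genes left out as well. Reads of 23 nt overlapped between the groups, at 12.1% and 15.1% in the AGO5 IP, against 13.8% and 13.9% in the GFP-only IP. The counting error of each share, a 95% Wilson interval, was at most 0.0518 points either way and covers counting only. The exact two-sided permutation test gave p = 0.333 for the 21, 22 and 24 nt shares, the smallest p that 2 libraries against 2 allow, so no share can pass 0.05. In the day 35 inputs, which were not part of this test, the 21, 22, 23 and 24 nt shares averaged 14.4%, 10.5%, 22.5% and 52.5%.

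**Figure D1:**
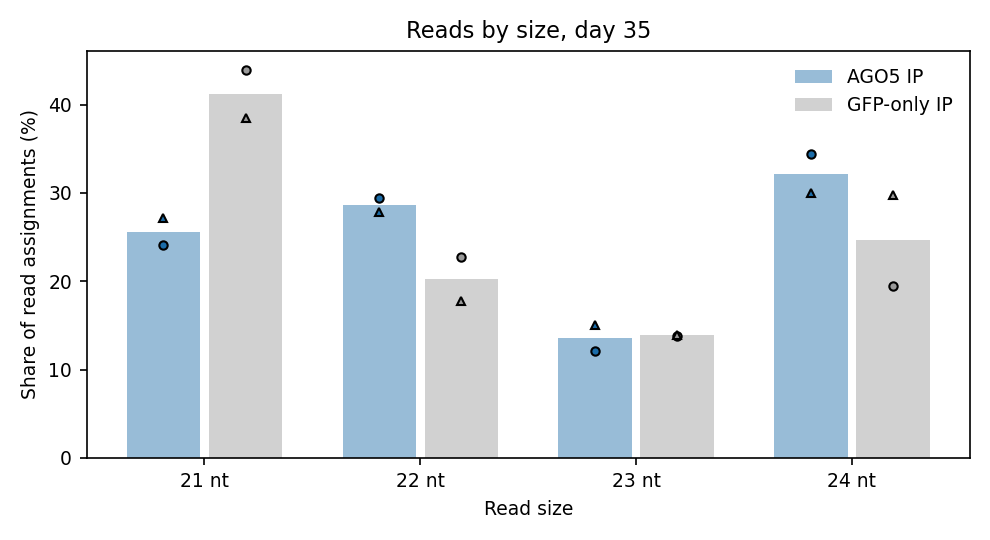
Share of read assignments by read size (percent, y axis) for 21, 22, 23 and 24 nt (x axis) in the AGO5 IP and the GFP-only IP at day 35; bars are means, circles replicate 1 and triangles replicate 2. The 21 nt shares of the AGO5 IP, 24.1% and 27.1%, lie below both GFP-only values, and its 22 nt shares, 29.4% and 27.8%, lie above them.

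TEs and protein-coding genes took a larger share of the AGO5 IP than of the GFP-only IP, and miRNA loci and structural RNA genes a smaller share. TEs held 67.0% and 60.9% of assignments in the AGO5 IP, against 49.4% and 47.3% in the GFP-only IP. Protein-coding genes held 12.8% and 11.9% in the AGO5 IP, against 5.71% and 5.01% in the GFP-only IP. miRNA loci held 6.89% and 11.7% in the AGO5 IP, against 20.6% and 21.2% in the GFP-only IP. Genes of ribosomal, transfer, small nuclear and small nucleolar RNA together held 2.37% and 2.57% in the AGO5 IP, against 8.27% and 7.57% in the GFP-only IP. Plastid and mitochondrial features held 0.802% and 1.94% in the AGO5 IP, against 2.19% and 4.01% in the GFP-only IP. None of these 5 classes overlapped between the groups, and p was 0.333 for each by the same exact permutation test. In the day 35 inputs TEs averaged 78.5%, miRNA loci 4.28%, protein-coding genes 8.06%, structural RNA genes 4.07% and organellar features 0.522%. Set against these inputs, the AGO5 IP held a smaller share of TEs and a larger share of miRNA loci, and the GFP-only IP more so.

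The TE share depended on which features were counted. The remaining genes held 10.12% and 10.9% of the AGO5 IP, against 13.8% and 14.9% of the GFP-only IP, and most of this came from 508 genes annotated as misc_RNA (6.18% and 6.61% in the AGO5 IP, against 10.3% and 12.5% in the GFP-only IP). The largest was AT3G06365, an uncharacterized misc_RNA gene, with 38328 and 39890 RPM in the AGO5 IP, against 73720 and 76475 RPM in the GFP-only IP. With structural, organellar and miRNA features left out, the difference in TE share was 2.66 points. With misc_RNA genes left out as well, an alternative chosen after seeing the data, TEs held 80.0% and 79.0% of the rest of the AGO5 IP, against 84.3% and 86.3% of the rest of the GFP-only IP, and the order turned (a difference of -5.78 points). The protein-coding share kept its order, at 15.2% and 15.4% in the AGO5 IP, against 9.75% and 9.15% in the GFP-only IP, and so did the 22 nt share, with a difference of 7.10 points.

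**Figure D2:**
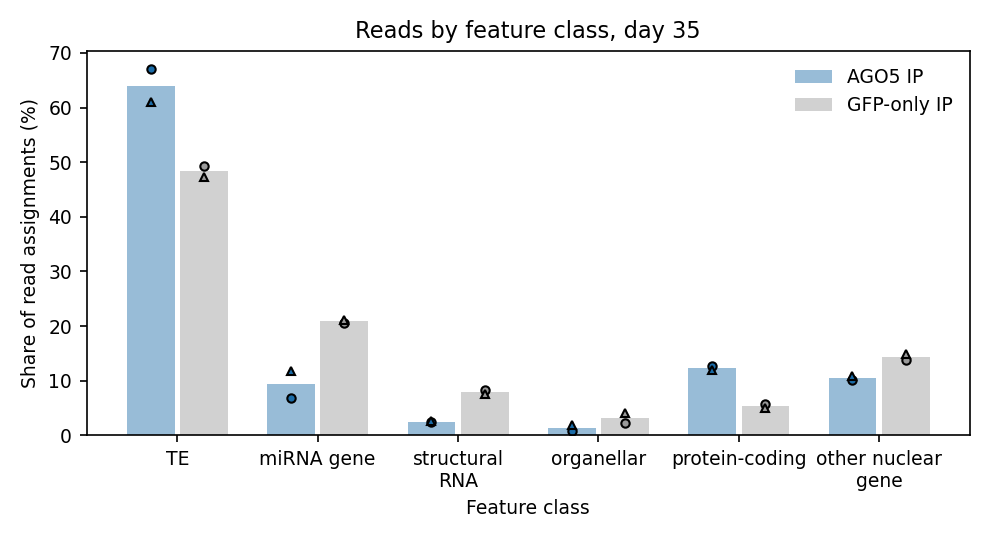
Share of read assignments by feature class (percent, y axis) in the AGO5 IP and the GFP-only IP at day 35; bars are means, circles replicate 1 and triangles replicate 2. TEs and protein-coding genes are higher and miRNA, structural, organellar and other genes lower in both AGO5 IP libraries, with miRNA loci at 6.89% and 11.7% in the AGO5 IP, against 20.6% and 21.2% in the GFP-only IP.

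As a part of all assignments, TE reads of 22 nt did not overlap between the groups, at 20.8% and 19.7% in the AGO5 IP, against 13.5% and 9.54% in the GFP-only IP. TE reads of 24 nt made up 26.2% and 22.0003% in the AGO5 IP, against 13.7% and 22.3% in the GFP-only IP, and those of 21 nt 11.6% and 8.99% in the AGO5 IP, against 13.1% and 7.85% in the GFP-only IP, both with overlap. Within a size, TEs took a larger part of the 21, 22 and 23 nt reads. Among 22 nt reads TEs held 70.7% in both AGO5 IP libraries, against 59.2% and 53.8% in the GFP-only IP, and among 21 nt reads they averaged 40.7% in the AGO5 IP, against 25.1% in the GFP-only IP. Among 23 nt reads they held 69.6% and 68.2% in the AGO5 IP, against 65.97% and 54.9% in the GFP-only IP. Among 24 nt reads the groups overlapped, at 76.3% and 73.3% in the AGO5 IP, against 70.2% and 74.7% in the GFP-only IP. Protein-coding genes held a larger share of the AGO5 IP also at 24 nt, with 13.9% and 13.5% of 24 nt reads, against 4.37% and 5.96% in the GFP-only IP. miRNA loci averaged 32.0% of 21 nt reads in the AGO5 IP, against 49.0% in the GFP-only IP. At 22 nt they averaged 3.11% in each group. Of the reads at miRNA loci, 14.1% and 6.87% were 22 nt long in the AGO5 IP, against 3.41% and 2.62% in the GFP-only IP. Most of these 22 nt reads in the AGO5 IP, but few in the GFP-only IP, lay at MIR845a and MIR845b, described below.

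Feature by feature, far more small RNA loci were higher than lower in the AGO5 IP. Of the 17020 features that averaged 1 RPM or more, 4170 rose (24.5%) and 896 fell (5.26%) at an adjusted p under 0.05 by limma on log2(RPM + 1) over all 16 libraries. The median log2 difference of all tested features was 0.58. These calls borrow the spread of the other 12 libraries: with only the 4 libraries compared, neither limma nor edgeR called any feature, although 4243 and 2564 had an unadjusted p under 0.05. With the 8 libraries of day 35, limma called 2801 higher and 420 lower. Of the features that rose, 2221 had 0 reads in both GFP-only libraries, where only a lower bound on the fold can be given. Quantile normalization moved the median of all features to -0.07 and gave 2089 higher and 1506 lower, so the balance of directions depended on the scaling. The median stayed positive in other scalings, at 0.60 with TMM, 0.54 by DESeq2 and 0.90 by edgeR on 15 libraries. Without AGO5 IP replicate 2, 551 features fell, and without GFP-only replicate 1 or 2 it was 2205 or 2007.

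By size, rises were most frequent at 22 nt by limma on the RPM scale. At 22 nt, 2022 of 7325 tested features rose (27.6%) and 117 fell (1.60%), with a median log2 difference of 1.02. At 24 nt, 3580 of 14054 rose (25.5%) and 628 fell (4.47%), with a median of 0.62. The order of 22 and 24 nt depended on the scaling and the test. Their median log2 differences were 0.72 and 0.75 with TMM scaling, and 0.45 and 1.44 by edgeR on 15 libraries. At 23 nt, 1665 of 8482 rose (19.6%) and 214 fell (2.52%), with a median of 0.55. At 21 nt, where the GFP-only replicates differed most from each other, 672 of 6713 rose (10%) and 137 fell (2.04%), with a median of 0.37. Within the 8 libraries of day 35 alone, 0 of the 21 nt features were called by limma (1164 had an unadjusted p under 0.05) and 2 rose at 23 nt. At 22 nt 1351 rose and 59 fell there, and at 24 nt 2196 rose and 200 fell. At 21 nt the counts moved with each library: without AGO5 IP replicate 1 or 2, 400 or 388 features rose and 78 or 64 fell, without GFP-only replicate 1, 2232 rose and 751 fell, and without GFP-only replicate 2, 585 fell.

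The sizes were also tested against each other within each feature. The ratio of 22 nt to 21 nt reads was higher in the AGO5 IP at 826 of 5920 features (14.0%) and lower at 144 (2.43%). The ratio of 24 nt to 21 nt reads was higher at 311 of 6231 features (4.99%) and lower at 110 (1.77%). With only the 4 libraries compared, limma called 0 features in either ratio, with 488 and 394 at an unadjusted p under 0.05. The balance of the 24 to 21 nt ratio turned without GFP-only replicate 1, at 939 higher and 1318 lower, while without AGO5 IP replicate 1 or 2 only 47 or 81 were higher. That of the 22 to 21 nt ratio held, from 284 higher and 77 lower without AGO5 IP replicate 1 to 1702 higher and 1004 lower without GFP-only replicate 1. The sizes named partly different loci: of 7053 features tested at both 22 and 24 nt, 1983 rose at 22 nt, 2137 at 24 nt and 968 at both, which is 48.8% and 45.3% of the 2 sets.

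**Figure D3:**
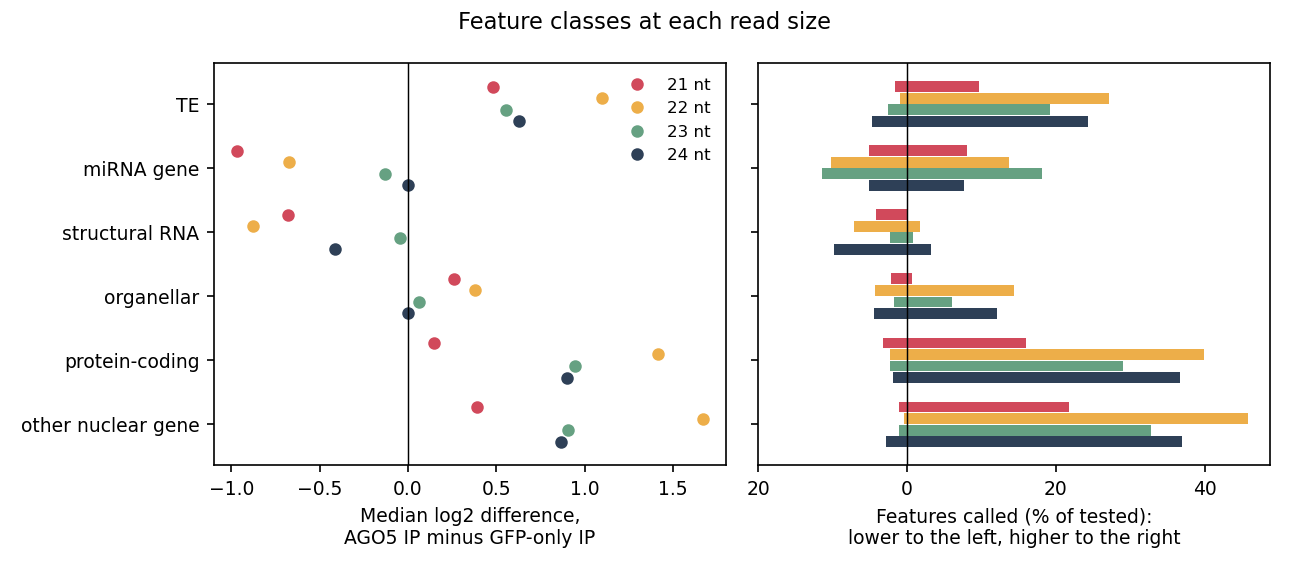
Left, median log2 difference (AGO5 IP minus GFP-only IP, log2(RPM + 1)) of each feature class at each read size; right, percent of tested features of the class that rose (to the right) or fell (to the left). Protein-coding genes and TEs had their highest medians at 22 nt, 1.41 and 1.10. The medians of miRNA and structural loci over all sizes summed, -0.87 and -0.83, are not drawn.

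The median miRNA locus was lower in the AGO5 IP, but a few loci were strongly enriched. Of 153 tested loci, 15 rose (against 24.5% of all features) and 17 fell (against 5.26%), and the median log2 difference was -0.87. In 20 loci the AGO5 IP libraries lay above both GFP-only libraries (over all features 37.2%), and in 64 below (11.1%). The balance of the called loci depended on the test: 12 rose and 10 fell by edgeR, 14 and 12 with a pseudocount of 0.25 RPM and 15 and 10 with no filter, against 14 and 24 by DESeq2 and 11 and 28 within the 8 libraries of day 35. These values include loci whose mature sequences are identical, which share reads.

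Of the miRNA loci, MIR845a and MIR845b rose most in amount. MIR845a had 17295 and 11957 RPM in the AGO5 IP, against 413 and 117 RPM in the GFP-only IP (a log2 difference of 6.02 with an SE of 0.95, adjusted p = 0.0008 by limma). MIR845b had 5890 and 3433 RPM in the AGO5 IP, against 165 and 138 RPM in the GFP-only IP (a log2 difference of 4.88 with an SE of 0.98, adjusted p = 0.0032). Neither locus overlapped between the groups, and together they held 23185 and 15390 RPM in the AGO5 IP, against 578 and 256 RPM in the GFP-only IP. At day 35 the loci averaged 284 and 116 RPM in the inputs, and 33.8 and 14.2 RPM in the AGO9 IP. In the fit of the 8 day 35 libraries their adjusted p was 0.0132 and 0.0138, and both calls held with each of the 4 libraries left out in turn.

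The loci differed in size. MIR845a was mostly 21 nt, with 15578 and 10447 RPM in the AGO5 IP, against 398 and 117 RPM in the GFP-only IP. Its 22 nt reads were further apart, at 1685 and 1482 RPM in the AGO5 IP, against 14.5 and 0.240 RPM in the GFP-only IP (a log2 difference of 8.49 with an SE of 0.99), and its 22 to 21 nt ratio rose by 2.62 (adjusted p = 0.046 by limma). MIR845b was mostly 22 nt, with 5460 and 3253 RPM in the AGO5 IP, against 155 and 138 RPM in the GFP-only IP. These lengths match the 21 and 22 bases of the annotated sequences printed above.

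The other 13 loci that rose were much less abundant. MIR5028 had 236 and 156 RPM in the AGO5 IP, against 5.59 and 0 RPM in the GFP-only IP (a log2 difference of 6.23 with an SE of 0.69, adjusted p = 0.0001 by limma). MIR829 had 133 and 40.03 RPM in the AGO5 IP, against 4.19 and 5.53 RPM in the GFP-only IP. MIR824, which targets the MADS-box gene AGL16, had 62.5 and 28.0 RPM in the AGO5 IP, against 2.236 and 0 RPM in the GFP-only IP. MIR831 had 98.3 and 57.0 RPM in the AGO5 IP, against 9.78 and 0.240 RPM in the GFP-only IP, a call that ended by edgeR (adjusted p = 0.102) and DESeq2 (0.0595). In all 4 the lowest AGO5 IP value lay above the highest GFP-only value. MIR866, MIR5022 and MIR5638a had 0 reads in both GFP-only libraries, and taking 3 reads per library as the floor they were at least 30.3-fold, 20.01-fold and 5.81-fold higher. MIR2937, MIR5015, MIR861, MIR775, MIR5643b and MIR5642a also rose, none above 142 RPM, and the last 4 were not called within the 8 libraries of day 35.

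**Figure D4:**
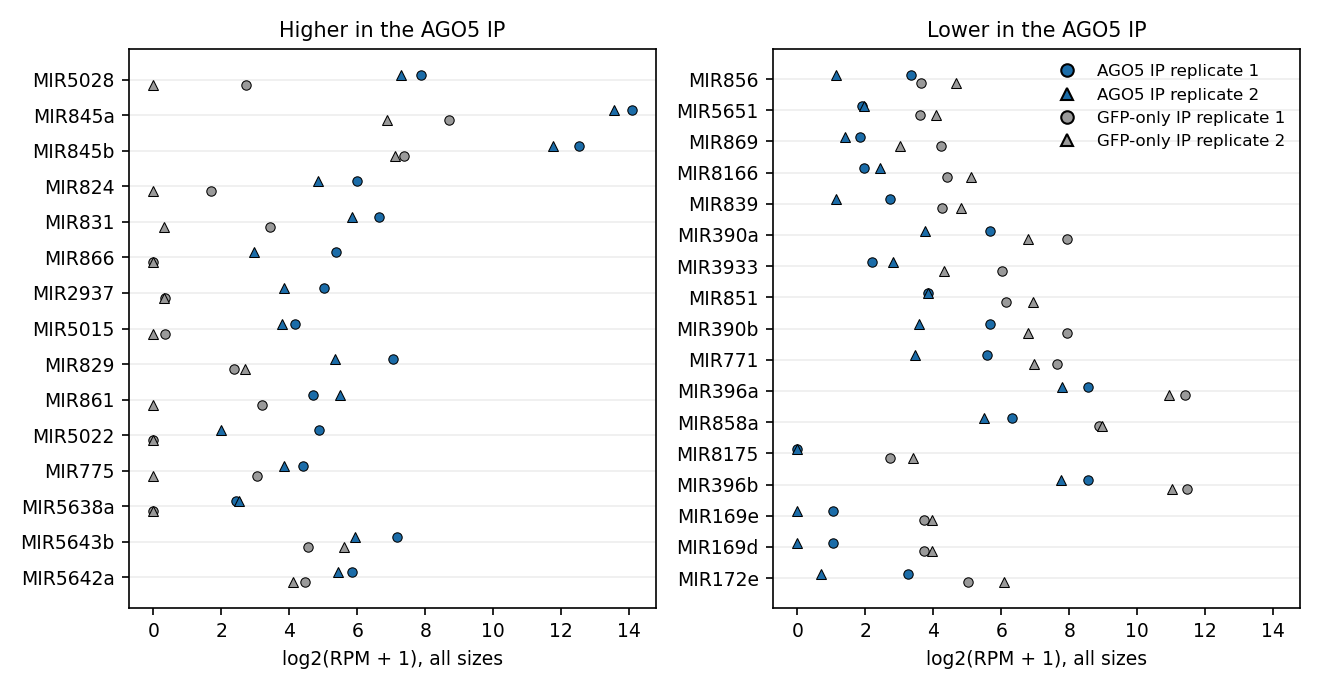
Level of the miRNA loci called at an adjusted p under 0.05 (log2(RPM + 1), all sizes) in each AGO5 IP and GFP-only IP library of day 35, with the 15 loci that rose in the left panel and the 17 that fell in the right panel. MIR845a and MIR845b are the most abundant of the loci that rose, and MIR396a and MIR396b of those that fell.

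Several conserved miRNA families that steer development lay below the background of the pull-down. MIR396a and MIR396b, whose product restrains the GROWTH-REGULATING FACTOR genes, fell. MIR396b had 372 and 217 RPM in the AGO5 IP, against 2808 and 2088 RPM in the GFP-only IP (log2 difference -3.09, adjusted p = 0.0339 by limma). MIR390a and MIR390b, whose product starts trans-acting siRNA (tasiRNA) formation at TAS3, also fell, and the family summed to 99.0 and 23.6 RPM in the AGO5 IP, against 486 and 220 RPM in the GFP-only IP. MIR858a, a regulator of MYB genes, fell to 78.9 and 43.7 RPM in the AGO5 IP, against 469 and 497 RPM in the GFP-only IP (adjusted p = 0.0499). MIR172e, of the family that targets APETALA2-like genes, fell to 8.48 and 0.611 RPM in the AGO5 IP, against 31.6 and 66.6 RPM in the GFP-only IP, but the summed MIR172 family overlapped between the groups at 546 and 73.1 RPM in the AGO5 IP, against 295 and 490 RPM in the GFP-only IP. MIR771, MIR851 and members of the MIR169 family were among the other loci that fell. Several of these calls ended when a library was left out. Without AGO5 IP replicate 2 the adjusted p by limma was 0.163 for MIR396b, 0.289 for MIR390a and 0.213 for MIR858a. Without GFP-only replicate 1 it was 0.0556, 0.109 and 0.0542 for these loci, and without AGO5 IP replicate 1 it was 0.0796 for MIR396b and 0.103 for MIR858a. MIR858a also lost the call without GFP-only replicate 2 (0.0694), and for MIR172e the adjusted p was 0.18 by edgeR on 15 libraries.

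Other families, among them some of the most abundant, did not pass the test. MIR165 and MIR166, whose products target the class III HD-ZIP genes that set leaf polarity and meristem function, summed to 15162 and 69580 RPM in the AGO5 IP, against 82357 and 133362 RPM in the GFP-only IP. All 8 tested loci lay below both GFP-only libraries (over all features 11.1%). None was called (of all features 24.5% rose and 5.26% fell), with AGO5 IP replicate 1 far below replicate 2. Nearly identical MIR166 loci count the same reads, so these are not independent. MIR159 and MIR319, whose products target GAMYB-like and TCP genes, summed to 12997 and 18448 RPM in the AGO5 IP, against 69660 and 44867 RPM in the GFP-only IP, with 0 of 6 loci called. MIR167, which targets auxin response factors, summed to 1336 and 646 RPM in the AGO5 IP, against 7768 and 3048 RPM in the GFP-only IP. MIR160, which targets another set of auxin response factors, summed to 45.6 and 89.2 RPM in the AGO5 IP, against 337 and 1498 RPM in the GFP-only IP. MIR393, which targets auxin receptor genes, summed to 111 and 27.9 RPM in the AGO5 IP, against 562 and 412 RPM in the GFP-only IP. Families whose products regulate the small RNA pathway itself, MIR162, MIR168 and MIR403, summed to 4761 and 4528 RPM in the AGO5 IP, against 14358 and 10415 RPM in the GFP-only IP. MIR156 and MIR157, the family that holds plants in the juvenile phase, overlapped between the groups at 1148 and 715 RPM in the AGO5 IP, against 2121 and 353 RPM in the GFP-only IP.

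**Figure D5:**
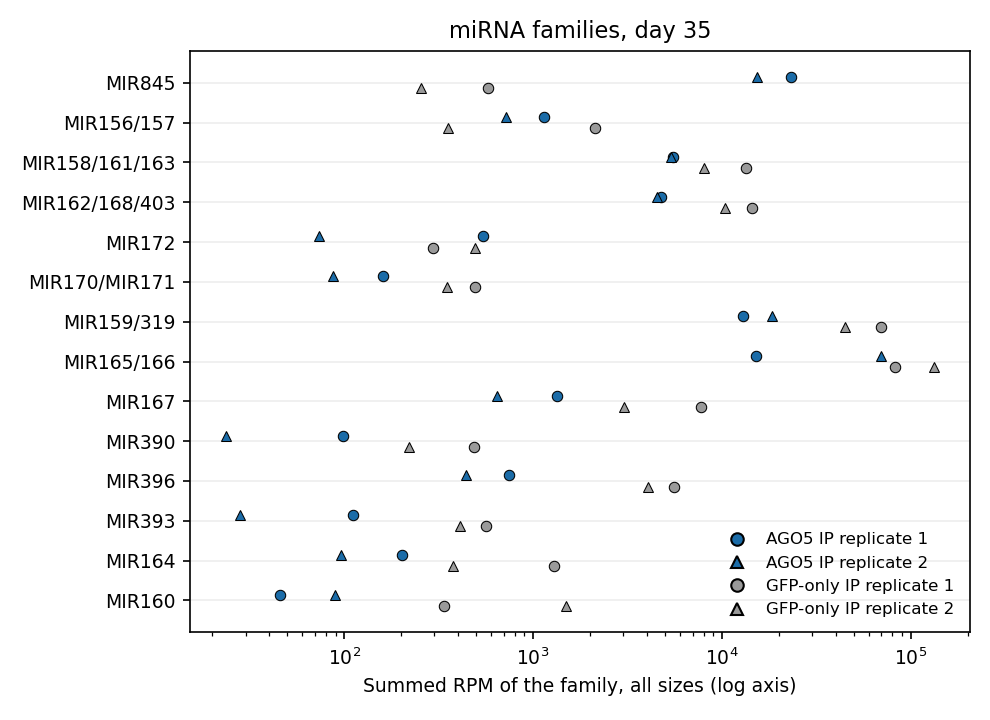
Summed RPM of 14 miRNA families (log axis) in each AGO5 IP and GFP-only IP library of day 35. MIR845 lies above the GFP-only IP in both replicates (23185 and 15390 RPM in the AGO5 IP, against 578 and 256 RPM in the GFP-only IP), whereas the MIR165 and MIR166 family, MIR159 with MIR319, and MIR396 lie below it.

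The first base of the annotated mature sequences was compared as a description, since a locus can give a product from each arm and reads were not assigned to arms here. Of the 26 tested loci with at least 1 product that begins with C, 4 rose and 2 fell (15 and 17 of all 153 miRNA loci, 24.5% and 5.26% of all features), and they summed to 22723 and 17589 RPM in the AGO5 IP, against 8628 and 7080 RPM in the GFP-only IP. Of the 114 loci with at least 1 product that begins with U, 7 rose and 11 fell, with a median log2 difference of -1.14. They summed to 49494 and 104295 RPM in the AGO5 IP, against 203868 and 210230 RPM in the GFP-only IP. In the 10 loci where all products begin with C, 1 rose, and the sums were 18144 and 12705 RPM in the AGO5 IP, against 1144 and 536 RPM in the GFP-only IP, mostly MIR845a. The median of the 26 loci was near 0 (-0.03), above the -1.14 of the 114 loci, and turned slightly positive with TMM scaling. Most of the 26 were not called higher, and whether the reads at these loci begin with C was not tested.

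MIR845a, MIR845b and MIR829, all among the loci that rose, share a stretch of 13 bases, noticed after their values were seen. It is printed in capitals here, with RefSeq sequences in TAIR10.1.
miR845a: cgGCUCUGAUACCAAuugaug
miR845b: ucGCUCUGAUACCAAauugaug
miR829-3p.1, chr1:11834094-11834117, minus strand: aGCUCUGAUACCAAaugauggaau
The stretch occurs in 3 of the 428 annotated mature sequences. The miR829 product that holds it has 24 bases, whereas the rise of MIR829 lay in 21 nt reads, with 129 and 39.2 RPM in the AGO5 IP, against 4.19 and 0 RPM in the GFP-only IP. Its 24 nt reads were 1.19 and 0.872 RPM in the AGO5 IP, against 0 and 5.53 RPM in the GFP-only IP (log2 difference -0.33, adjusted p = 0.813 by limma). Its reverse complement, TTGGTATCAGAGC, was searched on both strands of the TEs and was present in 128 of 31189 (0.410%) and in 109 of the 2669 of at least 2000 bases (4.08%). Of the 97 tested long TEs with it, 56 rose and 0 fell over all sizes (57.7% rose), against 876 and 65 of 2304 long TEs without it (38.0% rose). At 24 nt 46 of 96 with it rose (47.9%), against 850 of 2287 without it (37.2%). At 22 nt the order was the other way, with 10 of 69 with it (14.5%) against 550 of 1867 without it (29.5%). Under quantile normalization the order over all sizes turned as well, with 17 of 97 with it (17.5%) against 566 of 2304 without it (24.6%), and with no filter it was 28 of 97 (28.9%) against 607 of 2421 (25.1%). A match is a description of sequence, and TEs of a family can be near-identical copies that share reads.

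TEs, which were most of the 17020 tested features, rose about as often as all features, a share that they largely set. Of 12233 tested TEs, 3060 rose (all features 24.5%) and 639 fell (5.26%), with a median log2 difference of 0.62. The share that rose was 19.5% for TEs under 500 bases (908 of 4654), 23.6% for those in between (1220 of 5178) and 38.8% for those of at least 2000 bases (932 of 2401). Long TEs, the size class that holds complete retrotransposons, summed to 369755 and 358531 RPM in the AGO5 IP, against 229827 and 240447 RPM in the GFP-only IP. In windows of 500000 bases with at least 40% TE sequence, 2147 of 7296 TEs rose (29.4%), against 913 of 4937 elsewhere (18.5%). Under quantile normalization the median log2 differences were 0.02 for all TEs, -0.06 for the middle length class and -0.19 for short TEs, and 0.52 for long TEs. Among the length classes only the long one kept a positive median under every scaling run.

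Protein-coding genes rose most often at 22 and 24 nt. Over all sizes 797 of 3172 rose (all features 24.5%) and 115 fell, with a median log2 difference of 0.49 that became -0.30 under quantile normalization. At 22 nt 329 of 825 rose (all features 27.6%) and 19 fell, with a median of 1.41. At 24 nt 606 of 1654 rose (all features 25.5%) and 31 fell. Genes that overlap a TE rose in 34.4% of cases (247 of 718), against 22.4% (550 of 2454) without such an overlap. The sources used here do not say whether the counting used strand, so reads of a gene and of an overlapping TE cannot be told apart. The most abundant was AT2G08986, with 25851 and 13602 RPM in the AGO5 IP, against 3589 and 8598 RPM in the GFP-only IP (a log2 difference of 1.76 with an SE of 0.36, adjusted p = 0.004 by limma). AT1G40104 had 11715 and 7576 RPM in the AGO5 IP, against 1700 and 3713 RPM in the GFP-only IP (a log2 difference of 1.91 with an SE of 0.32, adjusted p = 0.001).

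The largest differences of single loci lay mostly at genes with almost no background, which a ranking by log2 difference favours where the control libraries are shallow. Over all sizes the gene with the largest was AT1G18130 (chr1:6235895-6238799), of the class II aminoacyl-tRNA and biotin synthetase family, which overlaps TEs. It had 128 and 212 RPM in the AGO5 IP, against 0.28 and 0 RPM in the GFP-only IP (a log2 difference of 7.20 with an SE of 0.44, adjusted p = 9e-06 by limma). The GFP-only value is a single read, and the ratio of 1256 has a counting interval from 225 to 49615. AT4G19580, a gene with a DNAJ domain, had 207 and 102 RPM in the AGO5 IP, against 0 in both GFP-only libraries, at least 198-fold higher. The F-box gene AT3G19890 had 396 and 233 RPM in the AGO5 IP, against 5.59 and 0.240 RPM in the GFP-only IP (log2 difference 6.74), and the TE AT3TE13090 had 75.8 and 170 RPM in the AGO5 IP, against 0 and 0.240 RPM in the GFP-only IP. Of these, AT4G19580 and AT3G19890 were also among the largest at 21 nt, with 189 and 93.3 RPM in the AGO5 IP, against 0 in both GFP-only libraries, and with 255 and 152 RPM in the AGO5 IP, against 5.59 and 0 RPM in the GFP-only IP, calls that the 8 libraries of day 35 alone did not give (adjusted p = 0.0599 by limma for each).

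Other loci stood out at particular sizes. The F-box gene AT3G21170 led at 23 nt, with 278 and 574 RPM in the AGO5 IP, against 0.56 and 2.64 RPM in the GFP-only IP (a log2 difference of 7.39 with an SE of 0.60, adjusted p = 3.8e-05 by limma). The long non-coding RNA gene AT1G04923 led at 24 nt, with 159 and 307 RPM in the AGO5 IP, against 0.28 and 0 RPM in the GFP-only IP (a log2 difference of 7.62 with an SE of 0.45), a ratio of 1695 with a counting interval from 304 to 66958. It also rose at 22 nt, with 129 and 225 RPM in the AGO5 IP, against 3.07 and 0 RPM in the GFP-only IP. AT5G45960, of the GDSL lipase family, rose at 24 nt with 160 and 218 RPM in the AGO5 IP, against 0.56 and 0.72 RPM in the GFP-only IP, and at 21 nt with 57.7 and 117 RPM in the AGO5 IP, against 0 in both GFP-only libraries. AT3G19890 rose at 22 nt with 119 and 74.8 RPM in the AGO5 IP, against 0 in both GFP-only libraries, at least 124-fold higher. The TE AT4TE63090 rose at 22 nt with 108 and 86.8 RPM in the AGO5 IP, against 0.28 and 0 RPM in the GFP-only IP. It also had the largest rise in the 22 to 21 nt ratio, 7.58 on the log2 scale. The 24 to 21 nt ratio rose most at AT4G08410, an extensin-like gene (6.76), whose 24 nt reads were 51.0 and 53.0 RPM in the AGO5 IP, against 0 in both GFP-only libraries, and by 6.36 at AT4G08400, also extensin-like. It fell most at MIR829, by 5.32, a call that ended without either AGO5 IP replicate (adjusted p = 0.186 and 0.0838 by limma). Genes of these families have near-identical copies, between which the counting can split or repeat reads.

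Loci that fell were fewer, and the largest falls lay at loci with lower values than the largest rises. Over all sizes the largest falls were at the TE AT1TE05700, with 0 and 0 RPM in the AGO5 IP, against 6.99 and 47.8 RPM in the GFP-only IP, and at AT5G41265, a gene of tRNA-Cys, with 1.43 and 0 RPM in the AGO5 IP, against 12.9 and 56.2 RPM in the GFP-only IP (log2 difference -4.17). The auxin receptor gene AFB3, a known target of miR393, had 0 and 0.87 RPM in the AGO5 IP, against 31.0 and 15.9 RPM in the GFP-only IP (log2 difference -4.09). The TE AT2TE06865 had 1.79 and 0 RPM in the AGO5 IP, against 19.6 and 34.1 RPM in the GFP-only IP. At 21 nt AT3TE49090 had 1.49 and 0.44 RPM in the AGO5 IP, against 23.5 and 23.1 RPM in the GFP-only IP. At 22 nt AT2TE35840 had 0.24 and 1.57 RPM in the AGO5 IP, against 14.8 and 33.2 RPM in the GFP-only IP, with an adjusted p of 0.0877 by edgeR. At 24 nt the largest falls were at genes of the U2 small nuclear RNA, a spliceosome component: U2.7 had 0.42 and 0 RPM in the AGO5 IP, against 22.4 and 24.04 RPM in the GFP-only IP, and U2.10 had 0.42 and 0 RPM in the AGO5 IP, against 15.4 and 25.5 RPM in the GFP-only IP.

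Fragments at structural RNA genes, a common background of pull-downs, were lower in the AGO5 IP. Of 562 tested structural genes, 15 rose and 84 fell (all features 24.5% and 5.26%), with a median log2 difference of -0.83. Of 466 transfer RNA genes 79 fell and 6 rose. The 3 tested ribosomal RNA genes summed to 18502 and 19371 RPM in the AGO5 IP, against 60291 and 64464 RPM in the GFP-only IP, and none was called. Of 127 plastid features 19 rose and 12 fell, and of 87 mitochondrial features 17 rose and 5 fell. These features and miRNA loci held less of every AGO5 IP library, and their part in the higher RPM of TEs and genes was not tested. The shares with them left out are given above. In the fit without them 2622 of 12637 TEs rose (20.7%) and 1093 fell (8.65%). Of 2409 long TEs 703 rose (29.2%) and 223 fell (9.26%). Of 3932 protein-coding genes 734 rose (18.7%) and 144 fell (3.66%). The rest of that fit were other nuclear genes, of which 227 of 736 rose (30.8%) and 30 fell (4.08%).

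Loci of tasiRNA precursors were not called over all sizes: of 8 tested TAS loci 0 rose or fell (all features 24.5% and 5.26%). Of these 8, 6 lay below both GFP-only libraries (over all features 11.1%). Within the 8 libraries of day 35, TAS2, TAS3 and TAS3b fell over all sizes (adjusted p = 0.0328, 0.0199 and 0.0134 by limma), and TAS3b also by edgeR on 15 libraries (adjusted p = 0.0203). TAS3b had 169 and 125 RPM in the AGO5 IP, against 734 and 461 RPM in the GFP-only IP. At 23 nt TAS1B rose to 17.3 and 14.9 RPM in the AGO5 IP, against 6.71 and 0 RPM in the GFP-only IP (adjusted p = 0.0455), and at 24 nt TAS1A rose to 8.06 and 8.37 RPM in the AGO5 IP, against 0 and 4.57 RPM in the GFP-only IP (adjusted p = 0.0365). At 22 nt TAS3b fell to 13.3 and 13.0 RPM in the AGO5 IP, against 109 and 63.5 RPM in the GFP-only IP (log2 difference -2.57, adjusted p = 0.010 by limma). Small RNAs also mapped to the Argonaute genes. The AGO5 gene rose to 19.9 and 11.5 RPM in the AGO5 IP, against 0 in both GFP-only libraries, at least 20.1-fold higher, in plants that carry an added AGO5 transgene. AGO3 rose to 21.3 and 3.84 RPM in the AGO5 IP, against 2.51 and 0 RPM in the GFP-only IP (adjusted p = 0.018 by limma), a call that ended by edgeR (0.161) and within the 8 libraries of day 35 (0.0909). AGO2, the target of miR403, had 1331 and 917 RPM in the AGO5 IP, against 3969 and 1403 RPM in the GFP-only IP, and was not called.

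Age changed the excess over background at some loci. The difference between AGO5 IP and GFP-only IP was larger at day 35 than at day 7 for 799 of 17020 features (4.69%) and smaller for 1007 (5.92%). Age and tissue change together here, and TMM scaling moved the median of this change from -0.31 to 0.29 and the number of smaller differences to 240. Without GFP-only replicate 1 of day 35 these counts were 2425 and 3271. MIR845a had the largest positive change, 7.77 on the log2 scale (SE 1.35, adjusted p = 0.0068 by limma): at day 7 it had 16.9 and 9.07 RPM in the AGO5 IP, against 69.0 and 28.2 RPM in the GFP-only IP. As a check of the age labels, MIR156 and MIR157 together summed to 273.9 and 735.5 RPM in the inputs of day 35, against 4637 and 4476 RPM in those of day 7, and MIR172 to 391.7 and 320.7 RPM in the inputs of day 35, against 63.5 and 72.6 RPM in those of day 7.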

How the data were processed

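A Qiagen miRNA kit was used for the libraries, per the labels' protocols. The authors deposited RPM (reads per 1000000) per feature for 21, 22, 23 and 24 nt reads. The tools cutadapt 1.18, Bowtie2 2.3.5.1, featureCounts and Subread 2.0.1 and the build TAIR10 are named per the submitters' processing notes. A read can count at several copies or overlapping features. All sizes means the sum of the 4 size columns. The deposited combined column of AGO5 IP replicate 1 is on another scale and was treated as a score and not used.

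Features averaging 1 RPM or more over 16 libraries were tested on log2(RPM + 1) by limma 3.58.1 in R 4.3.3, as 8 groups with 8 residual degrees of freedom and trended empirical Bayes moderation. P-values were adjusted by Benjamini-Hochberg over all features tested, with a threshold of 0.05. The added 1 RPM shrinks the log2 differences of low features. RPM values came out as whole multiples of a step, within 0.0001 of a read, in all 16 libraries. In AGO9 IP replicate 2 of day 7 the step lies too close to the rounding of the values to show whole reads, so 15 libraries gave counts of reads for edgeR 4.0.16 (quasi-likelihood) and DESeq2 1.42.0 as alternatives. In simulated data the limma fits recovered features given a large change, but unchanged features made up more of the calls than the threshold allows. Named features were, per size, up to 4 per direction with the largest log2 difference among those called, averaging 10 RPM or more and not overlapping between groups, up to 3 per direction for ratios and ages, and up to 3 of the most abundant members per list. Values for other loci are descriptions. Lists and rules were chosen with earlier results of these data known. Gene names and mature miRNA sequences came from the TAIR10.1 RefSeq annotation. Replicates differed by more than sampling noise, with a chi-square per degree of freedom of 90.1 in the AGO5 IP and 71.4 in the GFP-only IP.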

Additional observations from a re-analysis of the deposited data

Results flagged for a closer look

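The change of the AGO5 IP minus GFP-only IP difference between day 35 and day 7, tested as an interaction by limma over all 16 libraries, marked 6 loci. MIR845a had a change of 7.77 on the log2 scale (adjusted p = 0.0068). AT1G06580, a pentatricopeptide repeat gene, had a change of 7.26 (adjusted p = 0.0254), with 107 and 60.002 RPM in the AGO5 IP, against 9.78 and 0 RPM in the GFP-only IP at day 35, and 40.5 and 19.5 RPM in the AGO5 IP, against 131 and 251 RPM in the GFP-only IP, at day 7. NG1, of the same family, had a change of 7.23 (adjusted p = 0.0357) with 104 and 54.6 RPM in the AGO5 IP, against 16.2 and 0 RPM in the GFP-only IP at day 35, close to those of AT1G06580, and such genes can share reads. AT1G06580 lost the call without AGO5 IP replicate 1 of day 35 (adjusted p = 0.0707), AGO5 IP replicate 2 of day 7 (0.0887) and GFP-only replicate 1 or 2 of day 7 (0.0584 and 0.0624). NG1 lost it without the same libraries (0.094, 0.119, 0.0797 and 0.0823) and without AGO5 IP replicate 2 of day 35 (0.0647). The change was -6.02 at AT1G01725 (adjusted p = 0.0379, and 0.0655 with a pseudocount of 5 RPM), whose AGO5 IP replicates at day 35 differed, with 0 and 28.1 RPM, against 36.6 and 10.095 RPM in the GFP-only IP. Its call also ended without AGO5 IP replicate 1 or 2 (adjusted p = 0.0513 and 0.122) or GFP-only replicate 1 or 2 (0.0999 and 0.0732) of day 7. The change was -6.00 at AT5G41265, a tRNA-Cys gene (adjusted p = 0.0036), and -5.51 at AT3G48820 (adjusted p = 0.0364, 0.0522 with TMM scaling and 0.0522 with a pseudocount of 5 RPM, and 0.119, 0.085 and 0.0783 without AGO5 IP replicate 2 and GFP-only replicates 1 and 2 of day 7), with 0 and 20.2 RPM in the AGO5 IP of day 35, against 25.4 and 10.095 RPM in the GFP-only IP.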

How the results depend on the processing

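Counts below are given as higher and lower. With only the 4 libraries compared, limma called 0 and 0 for all sizes, each size and both ratios, and edgeR 0 and 0 for all sizes and each size (chosen after seeing the data); the unadjusted p was under 0.05 for 1035, 2302, 1890 and 3346 features at 21, 22, 23 and 24 nt by limma and for 422, 1504, 1228 and 2551 by edgeR. With the 8 libraries of day 35, also chosen after seeing the data, calls were 0 and 0 at 21 nt, 59 lower at 22 nt, 2 and 0 at 23 nt, 2196 and 200 at 24 nt and 420 lower over all sizes. With a mean of at least 10 RPM, they were 22 and 0 at 21 nt, 293 and 8 at 22 nt, 171 and 22 at 23 nt, 1666 higher at 24 nt, 1820 higher over all sizes, 275 and 6 for the 22 to 21 nt ratio and 22 and 2 for the 24 to 21 nt ratio. edgeR on 15 libraries gave 35 lower at 21 nt, 1279 higher at 22 nt and 520 lower over all sizes. TMM scaling gave 71 lower at 21 nt and 240 for the change between ages, a pseudocount of 5 RPM gave 236 lower at 21 nt and 1042 higher at 23 nt, DESeq2 1667 lower, no filter 542 lower and quantile normalization 2089 and 1506 over all sizes. With structural, organellar and miRNA features left out, the share differences were -7.24 points at 21 nt, 2.66 for TEs, 6.34 for protein-coding and -9.00 for other genes, and with misc_RNA also left out -7.90, -5.78, 5.89 and -0.106.

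Leaving out each replicate in turn gave 3146 to 5765 higher and 551 to 2205 lower over all sizes, 388 to 2232 and 64 to 751 at 21 nt, 1386 to 3455 and 68 to 592 at 22 nt, 989 to 2760 and 131 to 1084 at 23 nt, 2869 to 4476 and 410 to 2100 at 24 nt, 284 to 1702 and 77 to 1004 for the 22 to 21 nt ratio, 47 to 1126 and 16 to 1318 for the 24 to 21 nt ratio, and 393 to 2425 and 314 to 3271 for the change between ages. Each of the libraries moved some count by over 1.5 times. Without AGO5 IP replicate 1, 135 fell at 23 nt, 410 at 24 nt and 18 for the 24 to 21 nt ratio, and 627 for the change between ages. Without AGO5 IP replicate 2, 68 fell at 22 nt, 989 rose and 131 fell at 23 nt, 441 rose and 81 fell for the 22 to 21 nt ratio, and 666 fell for ages. Without GFP-only replicate 1, 3455 rose and 592 fell at 22 nt, 2760 and 899 at 23 nt, and 2100 fell at 24 nt. Without GFP-only replicate 2, 560 fell at 22 nt, 1084 at 23 nt and 1418 at 24 nt, 1521 and 642 changed for the 22 to 21 nt ratio, 1126 and 388 for the 24 to 21 nt ratio, and 1419 and 2886 for ages. Of the day 7 libraries, leaving out AGO5 IP replicate 2 gave 393 and 314 for ages, and GFP-only replicate 1 gave 365 lower. The cause of these moves was not tested. Share differences ranged from -18.3 to -12.9 points at 21 nt, 5.85 to 10.9 at 22 nt, -1.80 to 1.19 at 23 nt, 2.39 to 12.7 at 24 nt, 12.6 to 18.7 for TEs, -14.0 to -9.13 for miRNA, -5.80 to -5.10 for structural, -2.64 to -0.823 for organellar, 6.54 to 7.41 for protein-coding and -4.41 to -3.33 for other genes. With the replicate number as a block, calls were 4298 and 903 over all sizes and 598 and 104 at 21 nt; the labels give only the numbers and there are 2 pairs, so the libraries were not treated as paired; deviations of same-numbered libraries correlated at -0.0117 over all sizes and at 0.111, 0.0229, 0.0989 and 0.0514 at 21, 22, 23 and 24 nt. Of the 90 named results, 0 reversed under the alternatives run, but 288 of 1221 recomputed values no longer passed the threshold. The GFP-only depth limits what a 0 there can show to 0.838 and 0.721 RPM.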
